A study of Mus musculus with 7 samples.

Results

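The axon guidance ligands and receptors were taken as the genes of the deposited count table whose symbols belong to the ephrins, Eph receptors, semaphorins, plexins, neuropilins, Slits, Robos, netrins or Unc5 receptors. They number 67 of the 49492 genes in the table, 34 of them ligands and 33 receptors. The choice reads gene symbols and sets no threshold on a measured value. *Ntn3* was not analysed here, and *Ntn5* was read at 3 counts or fewer in every library, so 66 genes were tested.

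Bulk RNA-seq compared 2 mouse models of glioblastoma (GBM), with the samples given as C57BL/6 and 3 months of age. In the 4 NPCTKO samples, embryonic neural progenitors had been transformed by electroporation in utero of plasmids carrying Cas9 and guide RNAs against tumor suppressors, *Trp53* and *Nf1* among them, and RNA was isolated from tumor cells that FACS had sorted as EGFP+ or DsRed+. In the 3 NSCHRas-shp53 samples, lentivirus carrying a *Trp53* short hairpin RNA and an oncogenic form of human HRAS had been delivered to the ventricular-subventricular zone of grown mice, and whole GBM tissue was used without sorting. Loss or knockdown of *Trp53* was thus aimed at in both models by different means, and loss of *Nf1* in NPCTKO only. The model and the preparation changed together and cannot be told apart in any comparison below, and in bulk RNA fewer cells of a type and less RNA per cell cannot be told apart either. Some mice of the study carried a mixed C57BL/6 and CD-1 background, and nothing in the labels ties each sample to a separate mouse, so that p-values measure the spread between these samples. The submitters' design text speaks of duplicates, while the labels list 4 and 3 samples. Whether some samples of a model share a source is not given, in which case n would be smaller and the p-values too small, which also bears on the likeness of NPCTKO samples 1 and 2 and of samples 3 and 4 given below.

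Axon guidance cues steer growing axons and migrating cells by attraction or repulsion, and many of them also act in blood vessels and in tumors. Ephrins are membrane-bound ligands of the Eph receptor tyrosine kinases, and signals can pass into both of the touching cells. Semaphorins act through plexins, with neuropilins as co-receptors for most secreted class 3 members, Slits act through Robos, and netrins act through Dcc and the Unc5 receptors, which mediate repulsion and can trigger cell death when no ligand is bound.

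Library totals were 15002873 to 19247326 counts in NPCTKO and 17529054 to 19840860 counts in NSCHRas-shp53. A count of 3, taken as the detection floor, equals 0.130 to 0.234 CPM (counts scaled to library size with TMM factors), which covers counting error only. *Trp53* and *Nf1* were still read in every library, which says nothing of the edits, since a count per gene does not read them. *Trp53* stood at 91.9 to 201 CPM in NPCTKO and 54.9 to 82.3 CPM in NSCHRas-shp53, and *Nf1* at 41.6 to 230.2 and 98.4 to 133 CPM. NPCTKO samples 1 and 2 resembled each other (r = 0.980 across genes on the log2 scale), as did samples 3 and 4 (r = 0.946), whereas the correlations between these pairs were 0.818 to 0.880. Correlations between libraries of different models were 0.782 to 0.881, a range that includes those between the NPCTKO pairs.

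Cell type markers differed between the libraries. The summed level of 10 astrocyte markers was 247 to 761 CPM in NPCTKO and 3365 to 4224 CPM in NSCHRas-shp53, and 8 of the 10 were called higher. The 12 neuron markers summed to 36.2 to 87.4 CPM and 669 to 1506 CPM, with 10 of 11 tested called higher. Endothelial markers summed to 43.9 to 603 CPM and 660 to 1304 CPM, with 4 of 12 higher. Mural cell markers summed to 343 to 930 CPM and 372 to 614 CPM, with *Cspg4* alone at 310 to 888 CPM and 50.7 to 70.1 CPM. Of 11 mural markers 7 were higher while *Cspg4*, also a marker of oligodendrocyte precursors, was lower. Some markers called higher did not reach the filter on low counts (0.570 CPM in 3 libraries) within NPCTKO. *Kcnj8*, *Abcc9*, *Higd1b*, *Gjb6* and *Slc17a7* are among them, and their calls are no support. Of 9 tested oligodendrocyte precursor markers 6 were lower, with sums of 4282 to 6150 CPM against 851 to 1517 CPM. Microglia and macrophage markers spanned 654 to 29035 CPM within the sorted NPCTKO samples and 3423 to 9639 CPM in NSCHRas-shp53, and none of the 13 tested was called by edgeR or DESeq2 or had an unadjusted p under 0.05. *Aqp4*, an astrocyte water channel, was read at 0.365 to 8.22 CPM in the sorted cells and at 203 to 247 CPM in whole tissue. The paper reports oligodendrocyte precursor and astrocyte signatures in tumors of both models, so these sums do not tell tumor cells from other cells. The part of either in the differences below was not tested.

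**Figure D1:**
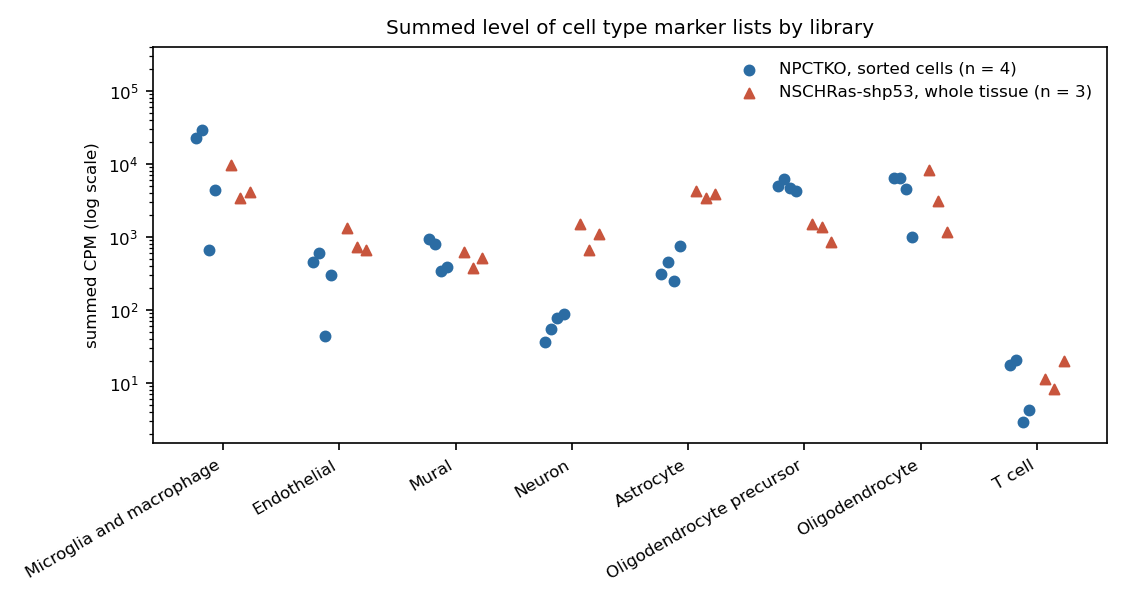
Summed CPM of 8 cell type marker lists in each library on a log axis, with circles for the 4 NPCTKO and triangles for the 3 NSCHRas-shp53 libraries. The neuron, astrocyte and endothelial sums of all 3 NSCHRas-shp53 libraries lie above those of all NPCTKO libraries, the oligodendrocyte precursor sums lie below, and the microglia and macrophage sums of NPCTKO spread from 654 to 29035 CPM.

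In edgeR's quasi-likelihood test, 10 of 66 tested members (15.2%) were higher, against 7.77% of all 16091 genes tested, and 3 (4.55%) were lower, against 5.28% of all genes. The higher members were the ligands *Efna3*, *Efna4*, *Efnb2*, *Ntn4*, *Sema3a* and *Sema3f* and the receptors *Epha6*, *Epha10*, *Robo3* and *Unc5b*. The lower members were the receptors *Plxna3*, *Plxnb3* and *Unc5c*. Of the 10 higher members, *Epha6*, *Epha10* and *Robo3* passed the filter on low counts (0.570 CPM in 3 libraries) only through the NSCHRas-shp53 libraries where they are high, so that they had to differ and their calls are no support. Among the 61 members that passed it in both models, 7 (11.5%) were higher and 3 (4.92%) lower, against 5.77% and 5.06% of 13680 such genes. Of 33 tested ligands 6 (18.2%, background 7.77%) were higher and 0 (background 5.28%) lower. DESeq2 called 9 higher and 2 lower (background 11.1% and 9.41%). At an unadjusted p under 0.05 in edgeR, 11 were higher and 4 lower, counts with no share over all genes beside them. Of 33 receptors 4 (12.1%, background 7.77%) were higher and 3 (9.09%, background 5.28%) lower. The 4 higher receptors include *Epha6*, *Epha10* and *Robo3*, whose calls are no support.

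In 21 members (31.8%, background 16.3% of genes) every NSCHRas-shp53 library lay above every NPCTKO library, and in 6 members (9.09%, background 14.9%) every one lay below. The 21 include *Epha6*, *Epha10* and *Robo3*, which passed the filter on low counts only through the NSCHRas-shp53 libraries and are no support. They stay in this share and in the medians below, as do 1273 genes of that kind in the background. The median log2 fold change, NSCHRas-shp53 minus NPCTKO, was 0.42 over the 66 members and -0.10 over all genes tested. On the deposited FPKM values the median was 0.54, and 64 of 66 members had the same sign in counts and FPKM. The count of members called depended on the fit. It was 10 higher and 3 lower with the main settings, and 18 higher and 5 lower after per-library trends with GC content and length were removed, where the background was 10.8% and 8.19% of genes.

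**Figure D2:**
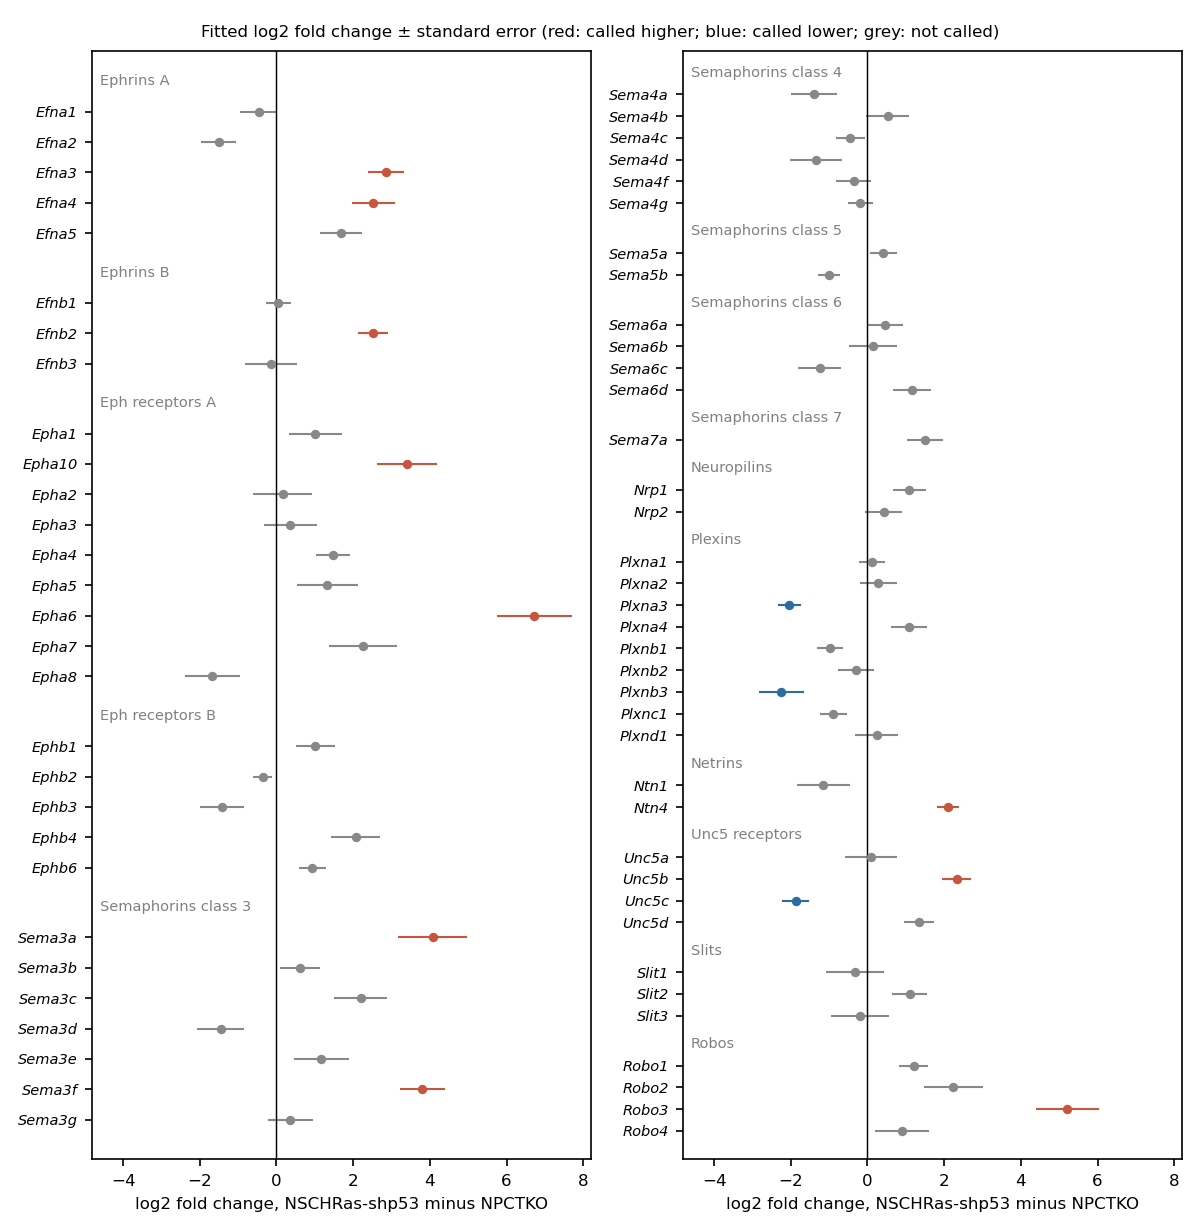
Fitted log2 fold change (NSCHRas-shp53 minus NPCTKO, 3 against 4 libraries) of the 66 tested guidance genes, grouped by family, with bars for the standard error. Red points were called higher, blue points lower and grey points were not called, and the 10 red points lie in the ephrin, Eph receptor A, class 3 semaphorin, netrin, Unc5 and Robo families while the 3 blue points are *Plxna3*, *Plxnb3* and *Unc5c*.

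Promoters were looked up in RefSeq on GRCm38.p6, the same assembly as mm10, and 58 of the 67 members were matched. The 150 bases upstream of the start are shown for 2 members called higher, *Unc5b* (chr10:60831582-60831731, minus strand) and *Efnb2* (chr8:8661243-8661392, minus strand), and 1 called lower, *Plxna3* (chrX:74328916-74329065, plus strand). These are 3 called members whose RefSeq start equals the gene boundary in the count table, and capitals mark GC boxes (GGGCGG or its reverse complement CCGCCC). *Epha6* and *Efna4*, also called higher with such a start, are not shown. *Epha6* held a GC box and *Efna4* held none.
Unc5b: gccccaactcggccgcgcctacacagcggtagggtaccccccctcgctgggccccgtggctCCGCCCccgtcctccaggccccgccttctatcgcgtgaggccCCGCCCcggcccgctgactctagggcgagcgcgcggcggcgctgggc
Efnb2: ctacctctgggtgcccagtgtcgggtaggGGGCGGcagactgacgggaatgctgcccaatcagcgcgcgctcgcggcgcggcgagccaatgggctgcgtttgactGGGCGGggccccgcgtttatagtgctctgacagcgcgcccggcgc
Plxna3: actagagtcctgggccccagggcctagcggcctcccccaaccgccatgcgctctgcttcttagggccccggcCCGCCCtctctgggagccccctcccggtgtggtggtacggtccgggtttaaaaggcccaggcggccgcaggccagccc
All 3 hold a GC box in these windows. In the 250 bases upstream of the start, on both strands, 42 of 58 matched members (72.4%) held a GC box, against 32.7% of 32851 promoters in the same table. Among the called members it was found in 7 of 9 matched higher ones and in 1 of 3 lower ones, *Plxna3*, and these counts are a description only. The matched start of *Sema3a*, a higher member without a GC box, lies 271370 bases from its boundary in the count table. For *Sema4d*, which was not called, this distance is 37064 bases. The median GC content of these windows was 64.6% in members and 52.4% in all promoters. The AP-1 string TGANTCA was found in 1 of 58 members (1.72%) and in 6.75% of all promoters.

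Among the ephrins, 3 of 8 ligands rose (background 7.77% of all genes) and none was called lower (background 5.28%). *Efnb2*, a transmembrane ephrin known from arterial endothelium and from neural stem cell niches, lies on chromosome 8 from 8617434 to 8661242 of mm10. It was read at 9.62, 12.2, 15.1 and 26.5 CPM in NPCTKO samples 1 to 4 and at 76.0, 94.1 and 102 CPM in NSCHRas-shp53 samples 1 to 3. The lowest whole-tissue library stood well above the highest sorted library. The log2 fold change was 2.51 ± 0.38 (SE, adjusted p = 0.00759), and the gene was called under all 18 alternatives, although other genes overlap 26.0% of its span and the kit did not mark strand.

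The GPI-anchored ephrins A split. *Efna3* was read at 1.48, 1.17, 0.625 and 0.725 CPM in NPCTKO and at 8.58, 6.39 and 6.62 CPM in NSCHRas-shp53, a log2 fold change of 2.85 ± 0.47 (adjusted p = 0.00944). It was low in all 4 sorted samples, and another gene overlaps 38.3% of its span. *Efna4* was read at 1.88, 1.09, 1.04 and 1.03 CPM and at 2.79, 10.1 and 9.0 CPM (log2 fold change 2.53 ± 0.56, adjusted p = 0.0233). NSCHRas-shp53 sample 1 lay near the NPCTKO samples, and the call was lost under 5 of 18 alternatives, with adjusted p up to 0.13. *Efna1*, the ephrin A with the highest FPKM in both models, was not called. It stood at 28.0, 14.1, 10.5 and 11.1 CPM in NPCTKO and 17.3, 9.99 and 7.48 CPM in NSCHRas-shp53, and the groups overlapped (log2 fold change -0.46 ± 0.48).

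Of 14 Eph receptors 2 were called higher (background 7.77%), both of class A and both low in NPCTKO. *Epha6* was read at 0, 1, 2 and 0 counts in NPCTKO and at 48, 68 and 251 counts in NSCHRas-shp53. Summed over libraries and scaled for depth, the ratio was 127 (95% interval 43.1 to 618, counting error only), and 251 of the counts came from NSCHRas-shp53 sample 3. No NPCTKO library reached the filter on low counts, so that the call of this gene is no support and its values are a description. *Epha10*, a member without kinase activity, was read at 0.336, 1.09, 0.365 and 0.181 CPM and at 7.43, 1.47 and 6.57 CPM (log2 fold change 3.40 ± 0.78). Only 1 NPCTKO library reached the filter, NSCHRas-shp53 sample 2 was close to NPCTKO sample 2, and the call, which is no support either, was lost under 6 of 18 alternatives, with adjusted p up to 0.13. No class B receptor was called by edgeR, and DESeq2 called 1 of 5 higher (background 11.1%). In edgeR 3 of 5 had an unadjusted p under 0.05, a count with no share over all genes beside it.

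*Epha2*, a receptor often high in gliomas, led class A in both models by FPKM, at 9.81 ± 8.38 (SD, n = 4) in NPCTKO and 13.1 ± 1.45 (SD, n = 3) in NSCHRas-shp53. Its CPM were 68.3, 89.3, 5.63 and 18.1 in NPCTKO and 50.2, 45.8 and 55.6 in NSCHRas-shp53. The sorted samples lay on both sides of the whole-tissue samples, and the fold change of 0.16 ± 0.77 on the log2 scale was not called. Class B was led by *Ephb3* in NPCTKO (12.2 ± 10.7 FPKM) and by *Ephb6*, which lacks kinase activity, in NSCHRas-shp53 (11.4 ± 3.32 FPKM). *Ephb3* led in only 2 of 4 NPCTKO libraries and *Ephb6* in 2 of 3 NSCHRas-shp53 libraries, so these leads are within the spread of the samples.

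The class 3 semaphorins, secreted ligands of neuropilins and plexins, rose in 2 of 7 members (background 7.77%), and none was called lower (background 5.28%). *Sema3a*, the classical collapsing factor for growth cones, lies on chromosome 5 from 13125414 to 13602565. It was read at 2.09, 1.64, 10.9 and 21.9 CPM in NPCTKO and at 84.3, 169.7 and 210.1 CPM in NSCHRas-shp53. NPCTKO samples 3 and 4 were higher than samples 1 and 2, and all 4 lay below every whole-tissue sample. The log2 fold change was 4.07 ± 0.90 (adjusted p = 0.0234), and the call was lost without NSCHRas-shp53 sample 2 and without sample 3, with adjusted p up to 0.090.

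*Sema3f*, a ligand with preference for *Nrp2*, was read at 3.77, 1.72, 2.34 and 2.06 CPM in NPCTKO and at 11.9, 30.1 and 61.8 CPM in NSCHRas-shp53. The sorted samples were close to each other, while the whole-tissue samples ranged widely and did not overlap with them. Its log2 fold change was 3.80 ± 0.59 (adjusted p = 0.00794), called under all 18 alternatives. The other 5 class 3 genes were not called. *Sema3d* had the highest class 3 FPKM in NPCTKO (13.5 ± 9.63) and its CPM were 28.7, 33.8, 154 and 74.0 against 35.2, 17.7 and 26.7 (log2 fold change -1.45 ± 0.61, adjusted p = 0.152).

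Membrane-bound semaphorins of classes 4 to 7 had no member called by edgeR among 13 (background 7.77% higher and 5.28% lower). DESeq2 called 1 higher and 1 lower (background 11.1% and 9.41%). At an unadjusted p under 0.05 in edgeR, 2 were higher and 2 lower, counts with no share over all genes beside them. *Sema7a*, a GPI-anchored ligand of integrins and *Plxnc1*, had the highest mean FPKM of all 67 members in NSCHRas-shp53. Its FPKM were 22.9, 27.6, 6.85 and 14.2 in NPCTKO and 50.4, 53.6 and 78.5 in NSCHRas-shp53, without overlap. The count fit gave a log2 fold change of 1.5 ± 0.47 (adjusted p = 0.0713), and the gene was called under 7 of 18 alternatives (adjusted p 0.0048 to 0.24). *Sema4d*, a ligand of *Plxnb1*, had the highest mean FPKM in NPCTKO with 94.6, 91.1, 22.2 and 25.7, and stood at 51.6, 17.1 and 20.1 FPKM in NSCHRas-shp53. Samples 1 and 2 carried this lead, and the groups overlapped (log2 fold change of the counts -1.34 ± 0.68, adjusted p = 0.226). *Sema6d* had the highest class 6 mean in both models but led in 2 of 4 NPCTKO libraries only, at 10.4 ± 5.58 and 24.9 ± 2.92 FPKM, and was not called (log2 fold change of the counts 1.17 ± 0.50, adjusted p = 0.156). In class 5, *Sema5b* led in all 4 NPCTKO libraries (6.52 ± 1.12 FPKM) and *Sema5a* in 2 of 3 NSCHRas-shp53 libraries (4.91 ± 2.15 FPKM).

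Of 9 plexins, the receptors of semaphorins, 2 fell (background 5.28%) and none was called higher by edgeR (background 7.77%) or DESeq2 (background 11.1%). At an unadjusted p under 0.05 in edgeR, 1 was higher and 4 lower, counts with no share over all genes beside them. *Plxna3* (chromosome X, 74329066 to 74344689) stood at 156, 143, 94.5 and 162 CPM in NPCTKO and at 29.9, 39.0 and 32.7 CPM in NSCHRas-shp53. All 3 whole-tissue samples lay far below the lowest sorted sample, the log2 fold change was -2.04 ± 0.30 (adjusted p = 0.00716), and it was called under all 18 alternatives. *Plxnb3*, a plexin known from oligodendrocyte lineage cells, was read at 317, 234, 322 and 83.8 CPM and at 85.3, 36.6 and 29.2 CPM (log2 fold change -2.25 ± 0.58, adjusted p = 0.0408). NPCTKO sample 4 lay just below NSCHRas-shp53 sample 1, and the call held under 12 of 18 alternatives, with adjusted p up to 0.17. Oligodendrocyte precursor markers were also higher in NPCTKO (4282 to 6150 CPM against 851 to 1517 CPM), and their part in this result was not tested.

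*Plxnb2*, a widely expressed plexin, led the family by FPKM in both models (50.5 ± 21.8 and 48.4 ± 8.01) and was not called. *Plxnd1*, a *Sema3e* receptor known from endothelium, was read at 370, 149.9, 53.0 and 149 CPM in NPCTKO and at 261, 183 and 195 CPM in NSCHRas-shp53, with overlap (log2 fold change 0.24 ± 0.57). Both neuropilins overlapped between the models in CPM, and neither was called. In FPKM *Nrp1*, whose row also carries another gene name, narrowly did not overlap, at 2.90 to 11.2 and 11.3 to 20.6. Its log2 fold change in the count fit was 1.09 ± 0.43 (adjusted p = 0.132). *Nrp2* was the higher of the pair in FPKM in all 4 NPCTKO libraries (13.1 ± 5.65) and in 1 of 3 NSCHRas-shp53 libraries (16.9 ± 8.55).

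The Unc5 receptors changed in opposite directions. *Unc5b*, the netrin receptor known from sprouting vessels and as a p53 target, lies on chromosome 10 from 60762610 to 60831581. It was read at 75.5, 41.9, 37.8 and 28.7 CPM in NPCTKO and at 195, 209 and 289 CPM in NSCHRas-shp53, and its log2 fold change of 2.33 ± 0.38 (adjusted p = 0.00919) was called under all 18 alternatives. *Unc5c*, on chromosome 3 (141465216 to 141834924), stood at 33.4, 41.2, 61.8 and 65.1 CPM in NPCTKO and at 12, 12.1 and 17.3 CPM in NSCHRas-shp53. Neither gene overlapped between the models, and they moved apart. The log2 fold change of *Unc5c* was -1.87 ± 0.36 (adjusted p = 0.0146), and the call was lost without any 1 of the NSCHRas-shp53 samples and without TMM factors, with adjusted p up to 0.074.

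Of the netrins, *Ntn4*, which binds laminins of the basement membrane, rose. The gene lies on chromosome 10 (93640681 to 93747207) and stood at 12.1, 10.8, 16.6 and 11.3 CPM in NPCTKO and at 49.8, 64.4 and 49.7 CPM in NSCHRas-shp53. Both groups were tight, and the log2 fold change of 2.1 ± 0.29 had the smallest adjusted p of the members (0.00553) and was called under all 18 alternatives. *Ntn1*, the founding axon attractant, was not called. It was read at 234, 325, 109.6 and 325 CPM in NPCTKO and at 241, 59.7 and 34.2 CPM in NSCHRas-shp53 (log2 fold change -1.15 ± 0.69, adjusted p = 0.301). NSCHRas-shp53 sample 1 lay within the NPCTKO range and the other two lay below it.

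*Ntn5* could not be tested in counts, since it had 0 to 3 counts in any library and another gene covers 98.5% of its span. Its FPKM were 0.153, 0.104, 0 and 0.0706 in NPCTKO and 1.41, 1.27 and 2.94 in NSCHRas-shp53. In limma on log2(FPKM + 1) the difference was 1.36 ± 0.21 (SE, adjusted p = 0.00520), a value that rests on the FPKM table alone. The gene passed the filter on FPKM (0.1 in 3 libraries) only through the NSCHRas-shp53 libraries where it is high. This p is therefore no support, and the values are a description.

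Of the 3 Slits and 4 Robos, 1 receptor was called higher (background 7.77%) and none lower (background 5.28%). *Robo3*, which in commissural neurons keeps axons from responding to Slit before they cross the midline, was read at 2, 3, 2 and 0 counts in NPCTKO and at 4.48, 2.28 and 6.57 CPM in NSCHRas-shp53. All sorted samples were at or below the floor of 3 counts. The depth-scaled ratio was 41.4 (95% interval 19.8 to 104, counting error only), and it passed the filter on low counts only through the NSCHRas-shp53 libraries, so that its call is no support. *Robo4*, known from endothelium, led the family by FPKM in NPCTKO (1.98 ± 1.11), and *Robo1* had the highest mean in NSCHRas-shp53 (3.86 ± 0.90) but led in 1 of 3 libraries only.

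No Slit was called by edgeR or DESeq2. In edgeR 1 of 3 had an unadjusted p under 0.05, a count with no share over all genes beside it. *Slit1* had the highest mean in both models, at 2.40 ± 1.28 and 2.09 ± 2.32 FPKM, but led in 1 of 3 NSCHRas-shp53 libraries only. *Slit3* differed between the deposited tables. Its CPM were 17.5, 11.4, 1.77 and 5.86 in NPCTKO and 4.92, 4.36 and 14.5 in NSCHRas-shp53 (log2 fold change -0.20 ± 0.76), while its FPKM were 0.102, 0.103, 0.143 and 0.289 against 0.608, 0.635 and 1.45. The counts thus overlapped and were highest in NPCTKO sample 1, whereas the FPKM were higher in all 3 NSCHRas-shp53 samples (limma adjusted p = 0.035). No direction is given for this gene.

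**Figure D3:**
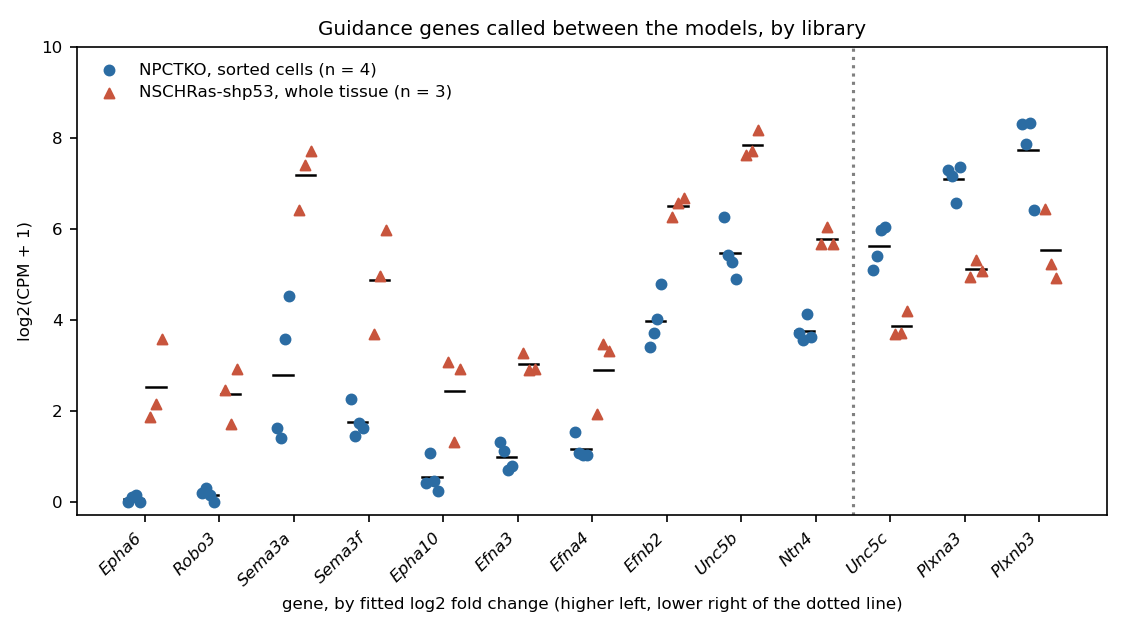
Level in log2(CPM + 1) of the 13 called guidance genes in each of the 4 NPCTKO (circles) and 3 NSCHRas-shp53 (triangles) libraries, with bars for the mean of each model. Every triangle lies above every circle for the 10 genes left of the dotted line, and below every circle for *Unc5c* and *Plxna3*, while the *Plxnb3* groups overlap slightly, with 83.8 CPM in NPCTKO sample 4 and 85.3 CPM in NSCHRas-shp53 sample 1.

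The make-up of the families, compared on FPKM because this unit is per length, differed along with the levels. *Sema3a* made up 6.36% ± 6.62 (SD, n = 4) of the summed class 3 semaphorin FPKM in NPCTKO and 43.7% ± 6.37 (SD, n = 3) in NSCHRas-shp53, where it led in all 3 libraries. *Sema3d* made up 54.5% ± 14.2 and 9.79% ± 6.14. Among the Unc5 receptors, *Unc5b* and *Unc5c* were near each other in NPCTKO, at 41.8% ± 9.68 and 40.3% ± 14.1, and stood at 87.6% ± 3.76 and 2.92% ± 0.64 in NSCHRas-shp53. The ranges of these 4 shares did not overlap between the models.

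*Efnb2* made up 14.1% ± 10.2 of the ephrin B FPKM in NPCTKO and 45.3% ± 11.1 in NSCHRas-shp53, and *Efnb3*, whose FPKM row is shared with *Wrap53*, 63.0% ± 17.6 and 37.6% ± 16.1 with overlapping ranges. *Ntn1* made up 88.9% ± 7.56 of the netrin FPKM in NPCTKO and 25.2% to 72.5% in the NSCHRas-shp53 libraries, and *Ntn4* 10.9% ± 7.66 and 49.5% ± 21.2 in the same order. Plexins summed to 139 to 216 FPKM in NPCTKO and 138 to 152 FPKM in NSCHRas-shp53. Within them *Plxna3* made up 10.6% ± 2.65 and 3.45% ± 0.69, and *Plxnb3*, whose row is shared with *Srpk3*, 18.5% ± 10.3 and 5.50% ± 3.42. By mean FPKM among the 67 members, *Unc5b* stood at rank 24 in NPCTKO and 3 in NSCHRas-shp53, *Sema3a* at 46 and 7, *Efnb2* at 38 and 10, and *Plxna3* at 10 and 38. These shares and ranks are descriptions and were not tested.

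**Figure D4:**
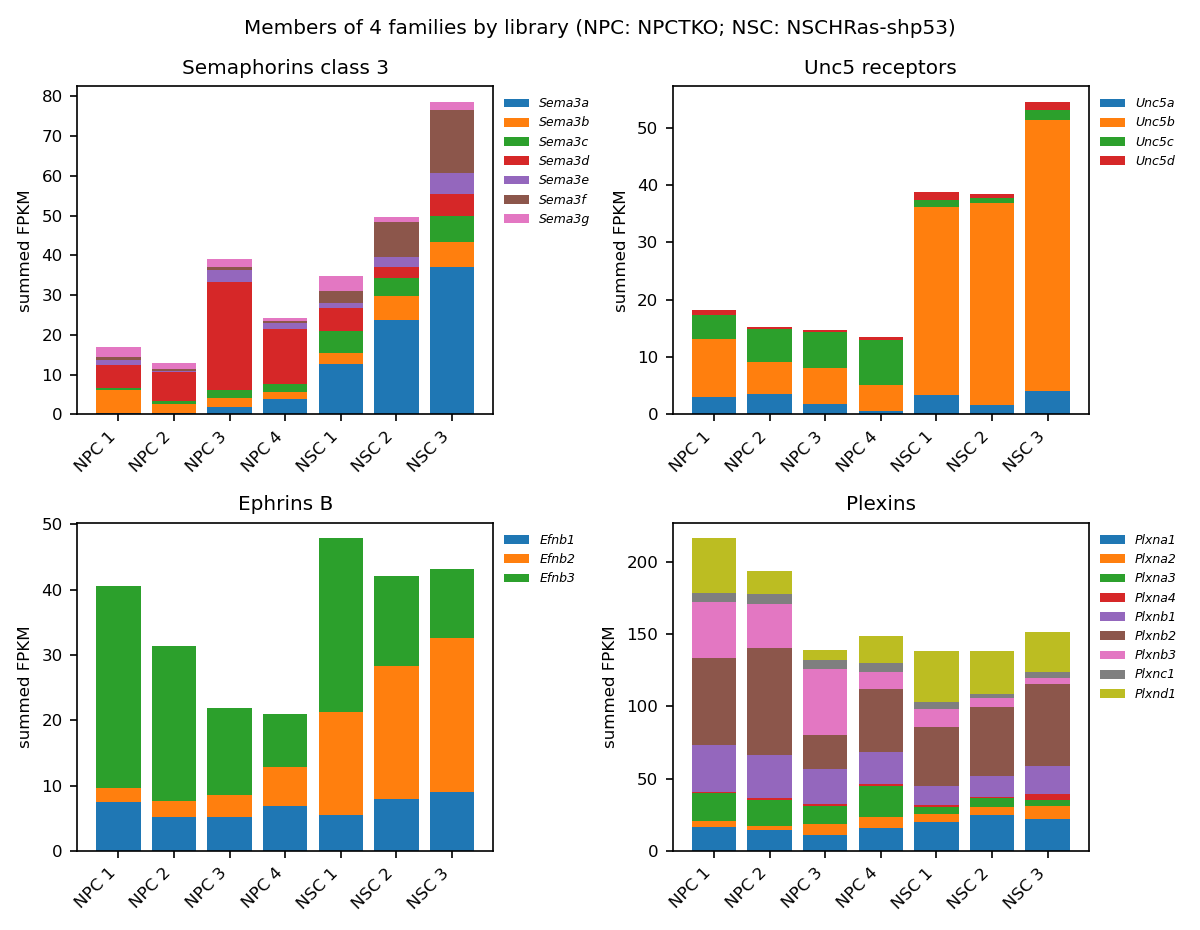
Summed FPKM of the class 3 semaphorins, Unc5 receptors, ephrins B and plexins in each library, stacked by gene, from a zero baseline. *Sema3a* and *Unc5b* are the largest parts of their bars in the 3 NSCHRas-shp53 libraries, and the Unc5 sums go from 13.5 to 18.1 FPKM in NPCTKO to 38.4 to 54.5 FPKM in NSCHRas-shp53.

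The members varied widely among the 4 NPCTKO samples. The median range from the highest to the lowest NPCTKO library was 1.53 on the log2(CPM + 1) scale over members and 1.19 over all genes, and in NSCHRas-shp53 it was 0.72 and 0.56. The largest ranges were those of *Epha2* (3.77), *Sema3a* (3.12), *Epha5* (2.95), *Efnb3* (2.84), *Plxnd1* (2.78) and *Slit3* (2.74). *Epha5*, a receptor of ephrins A, was read at 2.35, 1.95, 21.8 and 14.0 CPM in NPCTKO and at 19.1, 26.8 and 29.3 CPM in NSCHRas-shp53. *Efnb3* ran the other way within NPCTKO, at 67.5, 50.4, 23.8 and 8.58 CPM, against 55.8, 26.7 and 19.4 CPM in NSCHRas-shp53. Neither was called between the models.

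In 15 of 66 members (22.7%, background 36.3% of genes) NPCTKO samples 3 and 4 both lay above samples 1 and 2, and in 24 (36.4%, background 37.9%) both lay below. On FPKM, 13 of the 15 and 17 of the 24 had the same order. This order moved with base composition. The members higher in samples 3 and 4 had a median transcript GC content of 42.7% (39.2% to 50.4%), and those lower had 57.6% (53.4% to 63.5%). Across the 66 members, which share the same 4 libraries, the Spearman correlation between GC content and the difference of the pairs was -0.69, and over 15674 genes it was -0.60. The microglia and macrophage markers also differed along the same split, with sums of 22485, 29035, 654 and 4350 CPM in samples 1 to 4. The part of either in the members' spread was not tested.

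**Figure D5:**
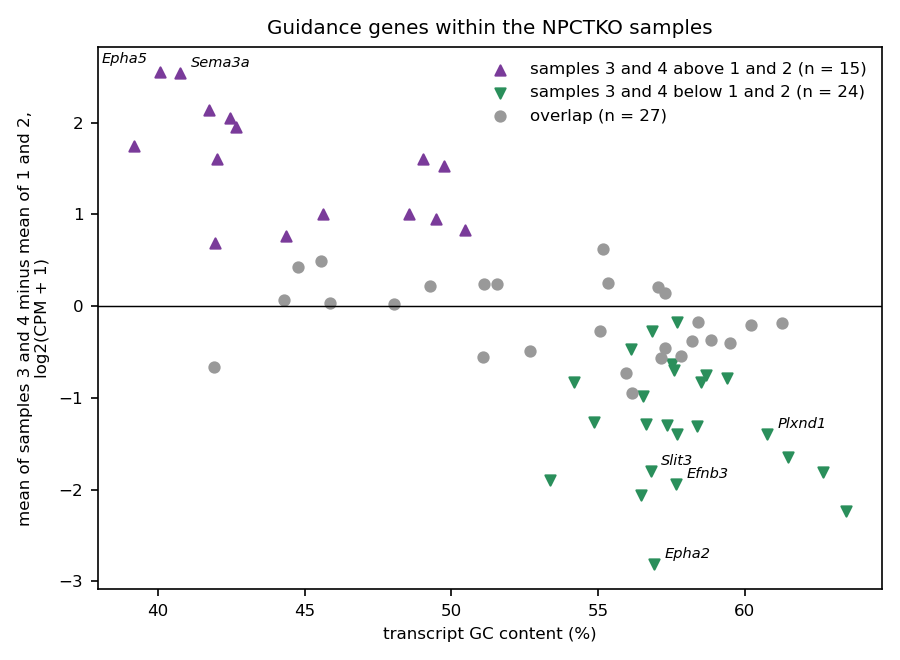
Mean of NPCTKO samples 3 and 4 minus mean of samples 1 and 2 in log2(CPM + 1), against transcript GC content, for the 66 tested guidance genes. The 15 upward triangles (both samples 3 and 4 above 1 and 2) lie at 39.2% to 50.4% GC and the 24 downward triangles (both below) at 53.4% to 63.5% GC, with the 6 genes of largest range named.

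Partners of these ligands and receptors were called at shares near those of all genes. Of 74 co-receptors, adaptors and effectors listed, 70 were tested, of which 5 (7.14%, background 7.77%) were higher and 3 (4.29%, background 5.28%) lower, with a median log2 fold change of -0.17. The 3 lower partners include *Draxin*, whose call is no support, as given below. Higher were *Ngef* (2.07 ± 0.40, adjusted p = 0.0157) and *Kalrn* (2.71 ± 0.53, adjusted p = 0.0159), guanine nucleotide exchange factors downstream of Eph receptors, *Nrcam* (2.43 ± 0.42, adjusted p = 0.0113), a cell adhesion partner of neuropilins, the flavoprotein oxidase *Mical2* (2.55 ± 0.53, adjusted p = 0.0193) and the actin-binding *Ablim1* (2.00 ± 0.45, adjusted p = 0.0248). *Nrcam* was read at 48.0, 71.8, 130.1 and 114 CPM in NPCTKO and 327, 538 and 601 CPM in NSCHRas-shp53.

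The 3 lower partners included 2 on the netrin side, *Draxin* and *Dscam*, and the call of *Draxin* is no support. *Draxin*, a secreted ligand of netrin receptors, was read at 11.8, 20.4, 5.42 and 11.9 CPM in NPCTKO and at 0.874, 0.355 and 0.692 CPM in NSCHRas-shp53, without overlap (log2 fold change -4.26 ± 0.63, adjusted p = 0.00716). NSCHRas-shp53 sample 2, at 0.355 CPM, did not reach the filter on low counts. *Draxin* thus passed this filter only through the NPCTKO libraries where it is high, and its values are a description. *Dscam*, a netrin co-receptor, was read at 72.4, 109.8, 77.4 and 49.8 CPM against 29.8, 12.7 and 17.5 CPM (log2 fold change -1.95 ± 0.41, adjusted p = 0.0201). *Dpysl5*, a collapsin response mediator, fell less (-1.63 ± 0.43 on the log2 scale, adjusted p = 0.0423). *Dcc*, the attractive netrin receptor, was not called, with 6.46, 3.20, 61.9 and 18.5 CPM in NPCTKO and 7.65, 7.15 and 7.01 CPM in NSCHRas-shp53. NPCTKO sample 3 alone carried most of its level.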

How the data were processed

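RNA of 4 NPCTKO (sorted cells) and 3 NSCHRas-shp53 (whole tissue) samples was sequenced from poly(A) libraries that do not mark strand. The authors trimmed reads with Cutadapt (1.16 in the submitters' processing notes) and mapped them to mm10 with TopHat 2.1.1. The raw counts per gene were deposited with a length that runs from the start to the end of each gene. The program that counted them, and whether reads in introns were included, is not stated in any source used here. Deposited FPKM values came from Cufflinks 2.2.1 with a row per locus (28538 rows, 3767 without a gene name). The FPKM rows of *Efna2*, *Efnb3*, *Nrp1* and *Plxnb3* also carry another gene name.

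Genes were compared with edgeR 4.0.16 in R 4.3.3 (quasi-likelihood test on genes kept by filterByExpr, with TMM factors). A gene was called at a Benjamini-Hochberg adjusted p under 0.05 over all 16091 genes tested. Differences are NSCHRas-shp53 minus NPCTKO. Errors of fold changes are standard errors. DESeq2 1.42.0 and limma 3.58.1 on log2(FPKM + 1), which understates changes of low genes, were among 18 alternatives, 7 of which left out 1 library each. A fit with per-library trends in transcript GC content and length removed (lengths from GENCODE, 97.4% of tested genes) was added after the data were seen.

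Named members are all those called, the member with the highest mean FPKM of each family in each model, and the 6 with the largest range in NPCTKO. *Sema7a*, *Ntn5* and *Dcc* are described further with their values in view. The members and lists were chosen with earlier results of these data known. Levels between genes were compared on FPKM only. Some items of the study are not reported here. Figures were drawn with matplotlib 3.10.9.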

Additional observations from a re-analysis of the deposited data

Results flagged for a closer look

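Of 33 named members, 2 had 1 NPCTKO library far from the other 3, by the ratio of its gap to the group's whole range on the log2(CPM + 1) scale. Chance marks about 1 in 20 groups, and NSCHRas-shp53 groups of 3 were not checked. *Efna4* stood apart in NPCTKO sample 1, at 1.88 CPM against 1.03 to 1.09 CPM, with a ratio of 0.9115. *Robo4* stood apart in NPCTKO sample 3, at 1.46 CPM against 10.3 to 12.5 CPM, with a ratio of 0.8983. The same sample had the lowest endothelial marker sum (43.9 CPM), and the part of endothelial cells in the *Robo4* value was not tested.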

How the results depend on the processing

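All 13 called members kept their direction under the 18 alternatives. Of 234 alternative values 209 kept the call and 25 lost it. The count of guidance genes called higher (10) became 19 with DESeq2, 18 with GC content and length trends removed, 17 without NPCTKO 1 and 2, 25 without NPCTKO 3 and 4, 19 with limma on log2(FPKM + 0.1), 17 on log2(FPKM + 1), and 7 to 13 without single libraries (lowest without NSCHRas-shp53 sample 3). The count called lower (3) became 6 with DESeq2, 5 with the trends removed, 14 without NPCTKO 3 and 4, and 1 to 4 without single libraries, with 1 left when any NSCHRas-shp53 sample was left out. The share of all genes called moved too. From 7.77% higher and 5.28% lower it became 11.1% and 9.41% with DESeq2, 10.8% and 8.19% with the trends removed, 8.95% and 7.40% without NPCTKO 1 and 2, 27.9% and 26.0% without NPCTKO 3 and 4 (4638 and 4313 genes), 9.21% and 6.07% with limma on log2(FPKM + 0.1), 9.07% and 5.51% on log2(FPKM + 1), and 2.51% and 0.751% without NSCHRas-shp53 sample 3. Without TMM factors the members split 13 higher and 2 lower, against 7.53% and 3.36% of all genes. The part of all calls that were in the higher direction went from 59.5% to 69.2%, and the median of all genes from -0.10 to 0.09. Partners called higher (5) became 9 with the trends removed, 8 without NPCTKO 1 and 2, 27 without NPCTKO 3 and 4, and 1 to 6 without single libraries, and those lower (3) became 5, 19 (without NPCTKO 1 and 2, and 3 and 4) and 1 to 5. The causes were not tested.

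Reversed signs occurred only among members that were not called in the edgeR fit reported above. Without NPCTKO 1 and 2, the log2 fold change was 0.13 for *Efna1*, 1.10 for *Efnb3*, 0.47 for *Plxnb2* and 1.09 for *Slit3*. *Epha2* was called in opposite directions, at -0.65 without NPCTKO 3 and 4 (adjusted p = 0.033) and 2.13 without NPCTKO 1 and 2 (adjusted p = 0.034), and its adjusted p went up to 0.97. Without NPCTKO 3 and 4 the value was -0.30 for *Plxnd1*. With trends removed it was 0.34 for *Efnb3*, -0.077 for *Sema5a* and 0.17 for *Slit3*. Without TMM factors it was 0.17 for *Efnb3*, 0.026 for *Plxnb2* and 0.21 for *Slit3*. With limma (pseudocounts 1 and 0.1) it was 0.045 and 0.048 for *Plxnb2*, and 0.69 and 1.90 for *Slit3*. Without single libraries it spanned -0.21 to 0.77 for *Epha2*, -0.66 to 0.34 for *Efnb3*, -0.57 to 0.033 for *Plxnb2*, -1.95 to 0.13 for *Slit1*, -0.067 to 0.90 for *Plxnd1* and -0.96 to 0.37 for *Slit3*.

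Deviations from the model means correlated at 0.269, -0.193 and 0.183 between samples with the same replicate number. Between samples with unlike numbers the values ran from -0.310 to 0.339. With 3 such pairs and the split among the NPCTKO samples, these values cannot show whether the numbers pair the samples. A replicate block gave 10 members higher and 3 lower, with 718 and 323 calls over all genes, but not for the same members. *Efna3* (adjusted p = 0.0509), *Efna4* (0.126) and *Epha10* (0.133) were not called, and *Epha4* (0.037), *Epha7* (0.042) and *Robo2* (0.023) were called higher.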

Other observations

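Across the 66 tested members, the Spearman correlation between transcript GC content and the fold change between the models was -0.28, and across all genes -0.26. Both are given as descriptions.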
